A study of Homo sapiens with 16 samples.

Results

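Defensins are short, cysteine-rich peptides that kill bacteria, fungi and some viruses by disturbing their membranes. Alpha-defensins (DEFA genes) are stored in neutrophils and in Paneth cells of the small intestine, while beta-defensins (DEFB genes) are made mainly by epithelia and, for many members, by the epididymis and testis. The genes lie in tight clusters that grew by duplication, and fibroblasts are not known as a site of strong expression for most of them. Dimethylation of lysine 9 of histone H3 (H3K9me2) is a mark of silent chromatin, and it is laid down over broad stretches rather than at single promoters.

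The defensin genes were taken as every gene whose symbol is DEFA or DEFB followed by a number and at most 1 letter. The rule found 67 genes of 63684 in the table of transcription start sites (TSS), and it used no measured value. They hold 123 windows of 2000 bp with distinct coordinates, each reaching 1 kb to both sides of an annotated start. Of these windows, 81 lie on the main chromosomes. The other 42 lie on alternate contigs, which held 0 reads in every library, as did all 18894 windows on such contigs. Among the genes, 11 are alpha-defensins and 56 are beta-defensins, and RefSeq lists 45 of the 67 as protein coding and 22 as pseudogenes. Chromosome 8 carries 40 of them, chromosome 20 carries 15, chromosome 6 carries 5, chromosomes 4 and 11 carry 3 each and chromosome 12 carries 1.

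The cells were BJ-5ta, a line of human fibroblasts immortalised with telomerase. Chromatin was immunoprecipitated and sequenced (ChIP), and the same chromatin was sequenced without antibody (input). The labels give the antibody only as H3, and the methods of the study name H3K9me2. Wild-type and ΔLEO1 cells, which lack a subunit of the PAF1 transcription elongation complex, were grown in 10% serum or held in 0.1% serum for 10 days to bring them into quiescence. This gave 8 groups of 2 libraries, replicates A and B. All ΔLEO1 libraries came from 1 knockout clone, so the clone and the genotype cannot be told apart. Nothing says that A and B are separate cultures, and p-values then measure only the spread between these libraries.

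Replicate A of the ΔLEO1 ChIP in 10% serum held 54 reads and was left out, which leaves 1 ChIP library in that group, 7 ChIP libraries in all and 8 inputs. The libraries used held 2153836 to 3696942 reads over TSS windows in ChIP and 3267811 to 9238282 in input, of which 732 to 1119 and 741 to 1714 fell on defensin windows. The LEO1 windows themselves held 41 to 83 reads in the 4 ΔLEO1 inputs and 77 to 147 in the 4 wild-type inputs. Scaled to depth these were 3.66 to 5.21 and 4.98 to 6.93 CPM per window, a unit explained below, and the ranges overlapped. The methods describe the loss of the DNA between exons 1 and 2, and the 3 windows, which also reach upstream of each start, still held 9 to 35 reads each in the ΔLEO1 inputs. How much of each window the deletion covers was not determined here, so these counts do not settle the genotype labels. Among genes that fibroblasts use, 9 of 11 fibroblast genes and 6 of 6 housekeeping genes were lower in ChIP than in input in wild-type cells in 10% serum, where 27.3% of all genes were lower. Housekeeping genes are active in most cells and say nothing of the cell type, and a low mark at fibroblast genes does not by itself establish the label. The collagen gene COL1A1 stood at -3.02 ± 0.24 (SE, edgeR adjusted p = 6.7e-09).

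Many defensin genes have near-identical copies, and reads from such copies cannot be assigned to 1 of them with certainty. Names were used here to mark possible copies: 34 of the 67 genes share their number with another gene that differs in the last letter. Likeness of sequence was checked only for the pair below. The rule also misses near-identical genes with different numbers, such as DEFA3 and DEFA1. The stretch below is shown because it is counted at 2 members on different chromosomes. It comes from the DEFB131A promoter (RefSeq, GRCh38.p14, chr4:9444284-9444462, plus strand) and the DEFB131B promoter (chr11:71878203-71878381, plus strand). Over 179 bases without a gap the 2 sequences are the same at 173 positions, or 96.6%, and differ at 6, which are in capitals.
DEFB131A: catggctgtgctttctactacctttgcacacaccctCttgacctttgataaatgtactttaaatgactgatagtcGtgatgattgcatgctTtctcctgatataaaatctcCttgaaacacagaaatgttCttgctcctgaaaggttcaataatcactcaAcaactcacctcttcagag
DEFB131B: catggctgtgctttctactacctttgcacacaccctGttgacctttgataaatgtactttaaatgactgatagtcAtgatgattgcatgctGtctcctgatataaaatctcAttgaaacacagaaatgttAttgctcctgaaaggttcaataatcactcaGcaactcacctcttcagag

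The 3 promoters below (RefSeq, GRCh38.p14) belong to genes whose ChIP signal is described later. They do not span the 0 to 9 CG dinucleotides found over 21 defensin promoters. CG dinucleotides are in capitals. DEFB110 (chr6:50021932-50022231, minus strand) has 0 of them, DEFB116 (chr20:31308536-31308835, minus strand) has 3 and DEFB126 (chr20:142340-142639, plus strand) has 1.
DEFB110: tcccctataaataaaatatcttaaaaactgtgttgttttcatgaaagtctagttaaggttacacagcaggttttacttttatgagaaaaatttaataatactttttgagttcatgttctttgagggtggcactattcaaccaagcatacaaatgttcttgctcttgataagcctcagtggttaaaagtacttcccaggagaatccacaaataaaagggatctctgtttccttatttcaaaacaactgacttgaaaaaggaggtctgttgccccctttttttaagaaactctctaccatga
DEFB116: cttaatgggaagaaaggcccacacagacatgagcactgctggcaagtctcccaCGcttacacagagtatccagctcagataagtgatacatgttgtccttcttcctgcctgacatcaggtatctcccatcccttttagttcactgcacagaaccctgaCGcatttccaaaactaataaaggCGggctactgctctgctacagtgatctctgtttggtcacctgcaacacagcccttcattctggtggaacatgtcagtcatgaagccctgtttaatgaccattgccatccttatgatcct
DEFB126: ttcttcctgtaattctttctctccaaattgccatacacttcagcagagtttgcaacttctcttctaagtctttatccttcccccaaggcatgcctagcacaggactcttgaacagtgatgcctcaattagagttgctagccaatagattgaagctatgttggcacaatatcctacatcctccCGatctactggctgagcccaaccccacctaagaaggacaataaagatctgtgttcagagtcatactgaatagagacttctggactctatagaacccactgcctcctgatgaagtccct

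RefSeq promoters of 300 bases, from 250 before to 50 after the start, were matched for 18 of the 67 genes, with 21 promoters in all on chromosomes 4, 6, 11 and 20. They held a median of 2 CG dinucleotides, with a range of 0 to 9, against a median of 14 over the 35116 promoters outside chromosome 8. Olfactory receptor promoters had a median of 1 and keratin-associated protein promoters a median of 2. The defensin promoters had a median GC content of 44.7%, and all promoters outside chromosome 8 had 58.7%. The motif TATAAA, searched on both strands, was present in 11 of the 21, or 52.4%, and in 11.5% of the 35116. Of the 21 promoters, 90.5% had 5 or fewer CG dinucleotides, compared with 33.7% of the 35116. A match of this kind describes letters and not a site in use.

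The level of a gene is given below as CPM per window, the reads of a 2000-bp window scaled to a common sequencing depth with the trimmed mean of M-values (TMM) over 15 libraries. In input, where each stretch of DNA should be read about equally, the 33 genes without a same-numbered copy were even: summed over the 8 inputs, each window held 103 to 250 reads. The 27 genes with copies on chromosome 8 were not. Of these, 18 had fewer than 20 reads over all 8 inputs, whereas 0 of the 7 genes with copies on chromosomes 4, 11 and 12 were so low. Summed over the windows of each set, the input level was 0.720 CPM per window for copies on chromosome 8, 3.54 for copies elsewhere and 4.73 for genes without copies (geometric means of 8 libraries).

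The lowest genes are some of the best-known beta-defensins. DEFB103A and DEFB103B encode beta-defensin 3, an inducible peptide of skin, and held 7 and 2 reads over the 8 inputs and 6 and 2 over the 7 ChIP libraries. DEFB4A and DEFB4B encode beta-defensin 2, which rises in inflamed epithelium, and held 34 and 6 input reads and 9 and 4 ChIP reads. DEFB105A, DEFB105B, DEFB106A, DEFB107B and DEFB108A held 0 reads in all 15 libraries, and a count of 0 allows up to 3 reads in each library. Another 12 genes held 1 to 30 reads over the 15 libraries. The neutrophil defensin gene DEFA1, itself present in several copies in the genome, held 14 input and 6 ChIP reads in 2 windows. Nothing can be said about the mark at these genes from these counts.

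**Figure D1:**
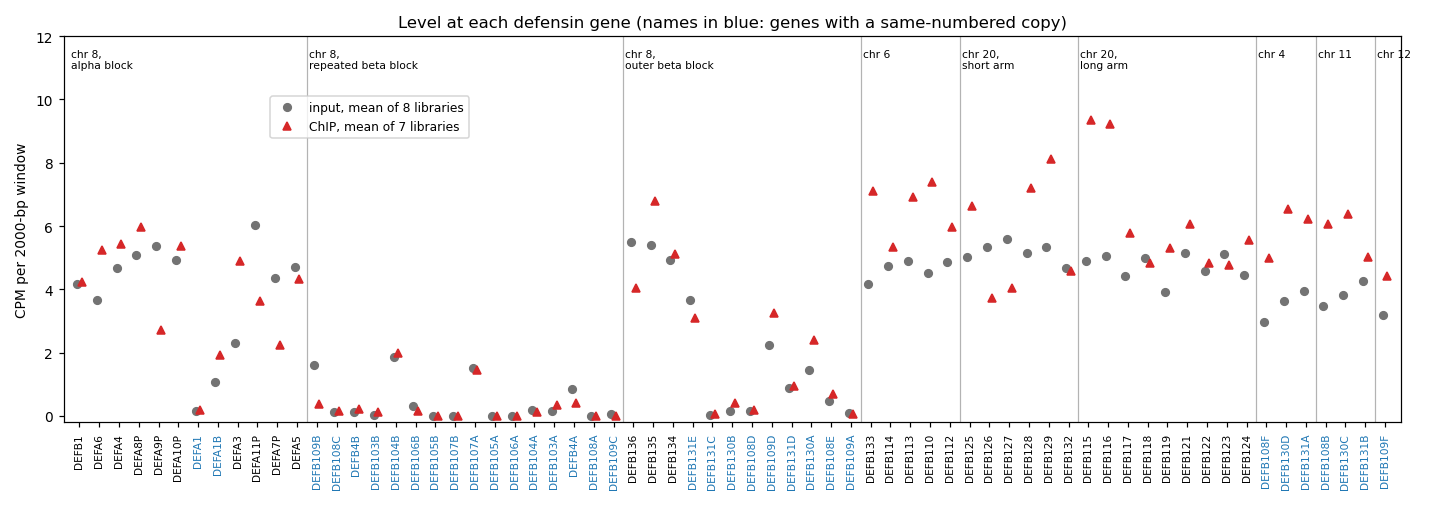
Mean level of each of the 67 defensin genes in CPM per 2000-bp window, for 8 input libraries (grey circles) and 7 ChIP libraries (red triangles), in genomic order within 9 blocks. Most genes of the repeated beta-defensin block of chromosome 8 lie near 0 in both, while genes without copies lie near 4.73 in input and DEFB115 and DEFB116 reach 9.35 and 9.23 in ChIP.

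The first comparison asked where the mark lies over defensin genes, by setting ChIP against input within each genotype and serum. Enough reads for the test were found at 44 of the 67 genes: all 33 without copies and 11 with copies. In wild-type cells in 10% serum, 12 of the 44 were higher in ChIP and 1 was lower (edgeR quasi-likelihood test, Benjamini-Hochberg adjusted p under 0.05 over 57627 genes). Over all genes tested, 57.0% were called, 29.7% higher and 27.3% lower. The defensins, with 27.3% higher, were thus near the background for higher calls. For lower calls, 1 of 44 was below the 27.3% of all genes. The median log2 ratio of the defensins was 0.27, and that of all genes was 0.13. The genes called higher were DEFA6, DEFB108B, DEFB108F, DEFB110, DEFB112, DEFB115, DEFB116, DEFB117, DEFB129, DEFB130C, DEFB131A and DEFB133, and the gene called lower was the pseudogene DEFA9P. Among the genes called higher, RefSeq lists DEFB108F, DEFB117, DEFB130C and DEFB133 as pseudogenes too. Without ChIP replicate B the count fell from 13 to 2, without ChIP replicate A to 6 and without input replicate B to 7. DESeq2 called 4, and non-overlapping windows gave 7. Windows of 1 gene can overlap, as at DEFB110, DEFB119, DEFB125 and DEFB133. Their shared reads then count again, which can make SE and p-values too small here and below. TMM places the middle of the ratios near 0, so a ratio is relative to the other genes. With the totals of the peak table as library sizes the median of all genes moved to -1.67 and the calls became 0 higher and 43 lower. The defensin median then lay 0.20 above that of all genes, compared with 0.14 under TMM.

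In the other groups the counts were smaller. In wild-type cells in 0.1% serum 4 genes were higher and 2 lower, with 20.1% and 23.9% of all genes (44.0% either way). In ΔLEO1 cells in 0.1% serum 8 were higher and 3 lower, with 19.6% and 23.8% of all genes (43.4% either way). In ΔLEO1 cells in 10% serum, with its lone ChIP library assumed to vary like the other groups, 5 were higher and 0 lower, with 14.4% and 17.1% of all genes (31.5% either way). DESeq2 called 0 in each of these 3 groups, with 3, 3 and 5 at an unadjusted p under 0.05. Leaving out 1 library gave 2 to 5 calls in wild-type cells in 0.1% serum (2 without either ChIP replicate), 2 to 6 in ΔLEO1 cells in 0.1% serum (2 without ChIP replicate A, 5 without either input replicate, 6 without ChIP replicate B) and 3 or 4 in ΔLEO1 cells in 10% serum (3 without input replicate A). With library totals in place of TMM the calls were 18 higher and 0 lower in wild-type cells in 10% serum, 9 and 1 in 0.1% serum, 16 and 0 in ΔLEO1 cells in 0.1% serum and 11 and 0 in 10% serum, and the median of all genes was 0.37, 0.33, 0.40 and 0.29. With the totals of the peak table, 0 genes were higher in any group and 44, 34 and 27 were lower in these 3 groups.

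Across the 4 groups, which share no library but were tested in 1 fit, 18 genes were called higher at least once and 4 were called lower at least once. The share of all genes called at least once was not computed. It cannot be below the 29.7% higher and 27.3% lower of wild-type cells in 10% serum, so these counts have no full background beside them. Of the 18, 9 were called in 1 group, 7 in 2 groups and 2 in 3 groups, and 14 had a ratio above 0 in all 4 groups. Among all 44 tested genes, 19 had a ratio above 0 in all 4 groups and 6 in none. The share of all genes above 0 in all 4 groups was not computed either. The 18 were picked for a ratio above 0 in at least 1 of these groups, so their 14 is partly set by the choice. The median of all genes was itself above 0 in each group, at 0.13 and 0.09 in wild-type cells in 10% and 0.1% serum. In ΔLEO1 cells it was 0.13 in 0.1% serum and 0.05 in 10% serum. A stricter reading without a model picked out fewer genes. Of 41 genes with enough ChIP reads, the 7 ChIP libraries lay above all 8 inputs at DEFB115 and DEFB130C and below them at DEFA11P. Of all genes kept in this way, 15.9% separated in each direction. Because the filter used ChIP reads alone, it dropped genes low in ChIP. DEFA9P and DEFA7P, described below, were dropped and also lay below all inputs, so the 2 directions cannot be compared.

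**Figure D2:**
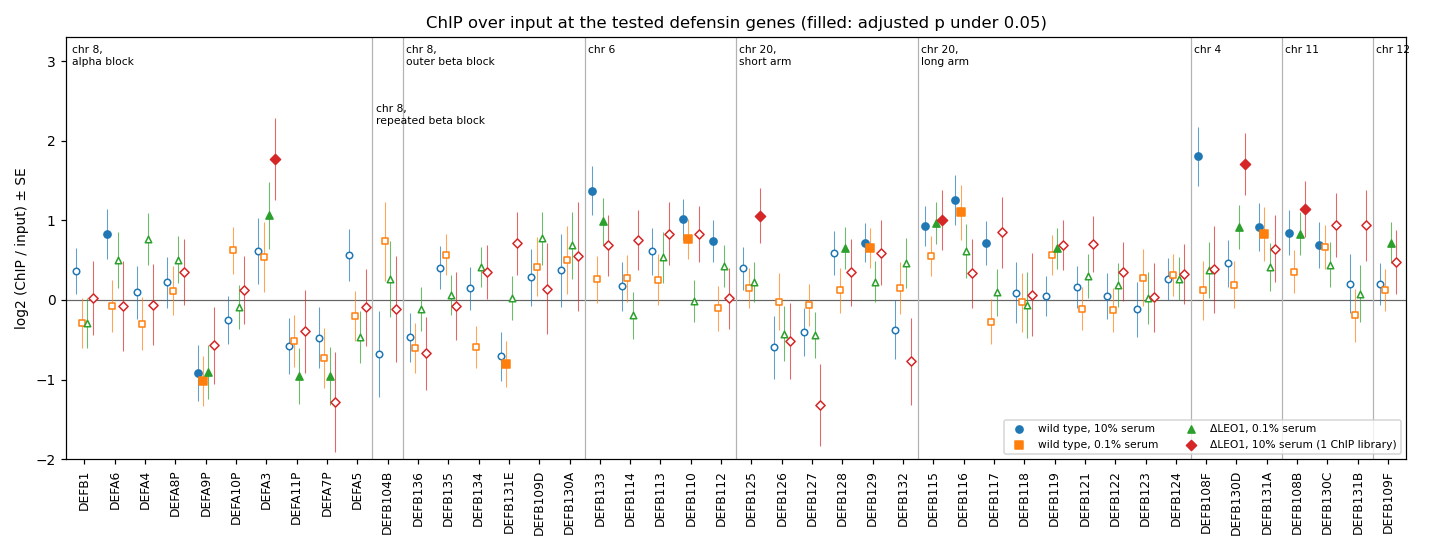
Log2 ratio of ChIP over input (± SE) at the 44 tested defensin genes in the 4 groups of genotype and serum, ordered by block, with filled symbols for an edgeR adjusted p under 0.05. Genes of chromosomes 6, 4 and 11 and DEFB115 and DEFB116 of chromosome 20 lie mostly above 0, and DEFA9P, DEFA7P and DEFA11P of chromosome 8 lie below 0 in every group.

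The alpha-defensin block of chromosome 8 holds 12 genes, of which 10 were tested. DEFA4, a neutrophil peptide, and DEFB1, the beta-defensin that most epithelia make without a stimulus, were called in no group. In wild-type cells in 10% serum their log2 ratios were 0.09 ± 0.34 and 0.36 ± 0.29 (SE). The Paneth cell peptides differed from each other in their calls: DEFA6 was higher in wild-type cells in 10% serum (0.83 ± 0.31, edgeR adjusted p = 0.0269), and DEFA5 stood at 0.56 ± 0.33 (edgeR adjusted p = 0.149). DEFA6 was at -0.08 ± 0.32 in wild-type cells in 0.1% serum, and the difference between DEFA5 and DEFA6 was not tested.

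DEFA3 encodes a neutrophil peptide that differs from that of DEFA1 at its first residue, and the genes are near-identical although their numbers differ. Its input level was the lowest of the genes without a same-numbered copy, with a median of 2.47 CPM per window (range 0.933 to 3.47). In ChIP the median was 4.03 (range 3.21 to 9.23), and the top value was the lone ΔLEO1 library in 10% serum. DEFA3 was called higher in ΔLEO1 cells in 10% serum (log2 ratio 1.77 ± 0.51, edgeR adjusted p = 0.0125) and in 0.1% serum (1.06 ± 0.42, edgeR adjusted p = 0.042). In wild-type cells it was at 0.61 ± 0.42 and 0.54 ± 0.44.

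The 5 alpha-defensin pseudogenes of the block did not behave alike. At DEFA9P the 7 ChIP libraries ran from 1.20 to 3.40 CPM per window, with a median of 3.01. The 8 inputs ran from 3.97 to 6.83, with a median of 5.33, so the groups did not overlap. DEFA9P, which had too few ChIP reads for the separation count above, was called lower in both wild-type groups and in ΔLEO1 cells in 0.1% serum, with log2 ratios of -0.92 ± 0.35, -1.01 ± 0.31 and -0.90 ± 0.34 (edgeR adjusted p = 0.0295, 0.0116 and 0.0342). At DEFA7P, also short of ChIP reads, the ChIP range of 1.46 to 2.69 lay below the input range of 3.06 to 6.30. DEFA7P and DEFA11P were called lower in ΔLEO1 cells in 0.1% serum, at -0.96 ± 0.37 and -0.96 ± 0.35 (edgeR adjusted p = 0.0381 and 0.0305). DEFA8P and DEFA10P were at 0.22 ± 0.32 and -0.25 ± 0.30 in wild-type cells in 10% serum and were called nowhere.

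The repeated beta-defensin block of chromosome 8 holds 16 genes, all with copies, and only DEFB104B had enough reads to be tested. It was called in no group, with log2 ratios from -0.68 ± 0.54 in wild-type cells in 10% serum to 0.74 ± 0.49 in wild-type cells in 0.1% serum. In the outer beta-defensin block, which lies in a second stretch of the chromosome, 6 of 12 genes were tested. Of these, DEFB131E was lower in wild-type cells in 0.1% serum (-0.81 ± 0.29, edgeR adjusted p = 0.0293), and it stood at -0.71 ± 0.31 in 10% serum (edgeR adjusted p = 0.0522).

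The 5 genes of chromosome 6 are beta-defensins without copies. RefSeq lists DEFB133 as a transcribed pseudogene, and the products of the others are little studied. DEFB133, DEFB110 and DEFB112 were called higher in wild-type cells in 10% serum, with log2 ratios of 1.37 ± 0.30, 1.01 ± 0.26 and 0.74 ± 0.27 (edgeR adjusted p = 0.00064, 0.00214 and 0.0212). DEFB113 and DEFB114 were at 0.61 ± 0.30 and 0.17 ± 0.31 and did not pass. At DEFB133, whose 2 windows span positions 49948444 to 49951265 of chromosome 6 (hg38), the ChIP libraries ran from 5.18 to 9.57 CPM per window, with a median of 7.22. The inputs ran from 2.10 to 6.67, with a median of 3.96, so the groups overlapped. DEFB133 was also higher in ΔLEO1 cells in 0.1% serum (0.99 ± 0.29, edgeR adjusted p = 0.00948). The windows of DEFB133 overlap, as do those of DEFB110, so their shared reads count again in these SE and p-values.

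DEFB110, whose CG-free promoter is printed above, ran from 3.67 to 9.90 CPM per window in ChIP, with a median of 7.97, and from 3.81 to 5.55 in input, with a median of 4.43. It was higher in wild-type cells in 0.1% serum too (0.76 ± 0.25, edgeR adjusted p = 0.018), and stood at -0.02 ± 0.26 in ΔLEO1 cells in 0.1% serum. The lowest ChIP library was replicate A of that last group.

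Chromosome 20 carries beta-defensins of the male reproductive tract with 6 genes on the short arm and 9 on the long arm, and all 15 were tested. DEFB115 and its neighbour DEFB116 on the long arm had the highest ratios of the chromosome in wild-type cells in 10% serum, at 0.92 ± 0.25 and 1.26 ± 0.31 (edgeR adjusted p = 0.00353 and 0.00165). At DEFB115 the ChIP libraries ran from 7.63 to 11.7 CPM per window, with a median of 9.24, and the inputs from 3.05 to 6.11, with a median of 5.18. It was called in 3 of 4 groups, with 0.97 ± 0.27 and 1.00 ± 0.38 in ΔLEO1 cells in 0.1% and 10% serum (edgeR adjusted p = 0.00607 and 0.0441), and reached 0.55 ± 0.25 in wild-type cells in 0.1% serum (edgeR adjusted p = 0.077). At DEFB116 the ChIP range of 5.16 to 15.9 overlapped the input range of 2.95 to 8.77. Its ChIP replicates A and B in wild-type cells in 10% serum differed, at 15.9 and 7.39. DEFB116 was also called higher in wild-type cells in 0.1% serum (1.10 ± 0.34, edgeR adjusted p = 0.0124).

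Other genes of chromosome 20 were closer to input. DEFB118 and DEFB119 encode epididymal peptides. DEFB118 was called in no group and stood at 0.09 ± 0.38 in wild-type cells in 10% serum. DEFB119 was called higher in 1 group, the ΔLEO1 cells held in low serum, at 0.65 ± 0.26 (edgeR adjusted p = 0.0432), and was at 0.56 ± 0.25 in wild-type cells in 0.1% serum. Its windows overlap, and their shared reads count again. DEFB126, which coats sperm, was the lowest of the chromosome in wild-type cells in 10% serum, at -0.59 ± 0.40 (edgeR adjusted p = 0.206), followed by DEFB127 at -0.41 ± 0.30. On the same short arm DEFB129 was higher in both wild-type groups (0.72 ± 0.25 and 0.65 ± 0.26, edgeR adjusted p = 0.0163 and 0.0417), and DEFB128 and DEFB125 were each higher in 1 ΔLEO1 group.

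Of the 7 genes with copies outside chromosome 8, 6 were called higher at least once. The share of all genes so called was not computed, so this count has no background. RefSeq lists DEFB108F, DEFB109F, DEFB130C and DEFB130D as pseudogenes. The aligned stretch shows how alike 2 of the 7 are, DEFB131A and DEFB131B. The other 5 were not aligned, 0 of the 7 held fewer than 20 input reads, and whether reads were shared between copies was not tested. DEFB131A was higher in both wild-type groups (0.92 ± 0.30 and 0.83 ± 0.34, edgeR adjusted p = 0.0128 and 0.0495). Its copy DEFB131B was called in no group and stood at 0.21 ± 0.37 in wild-type cells in 10% serum. On chromosome 4, DEFB108F reached 1.81 ± 0.37 in wild-type cells in 10% serum (edgeR adjusted p = 0.000292) and 0.12 ± 0.37 in 0.1% serum. In 10% serum its inputs were low, at 1.26 and 1.98 CPM per window (6 and 14 reads), and its ChIP libraries differed, at 4.38 and 9.40. In 0.1% serum the inputs were at 4.33 and 2.70 and the ChIP libraries at 4.29 and 3.38. DEFB130D reached 1.71 ± 0.39 in the lone ΔLEO1 library in 10% serum. On chromosome 12, DEFB109F was called in ΔLEO1 cells in 0.1% serum (0.72 ± 0.26, edgeR adjusted p = 0.027). On chromosome 11, DEFB130C was called in wild-type cells in 10% serum (0.69 ± 0.29, edgeR adjusted p = 0.0483), and its ChIP range of 4.89 to 7.29 lay above its input range of 3.29 to 4.68. DEFB108B was called in wild-type cells in 10% serum and in both ΔLEO1 groups, with ratios of 0.85 ± 0.28, 0.83 ± 0.27 in 0.1% serum and 1.14 ± 0.35 in 10% serum (edgeR adjusted p = 0.014, 0.0161 and 0.0176).

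Summed over windows, the chromosomes gave different values, and the differences between them were not tested. On chromosome 6 the 7 windows averaged 6.70 CPM per window in ChIP and 4.50 in input, a log2 difference of 0.57 with a pooled SD of 0.20 between libraries. On chromosome 20 the 22 windows averaged 5.78 and 4.80, a difference of 0.27 with an SD of 0.11. On chromosome 8 the 43 windows averaged 2.01 and 2.02, a difference of -0.00 with an SD of 0.10. Without the genes that have copies, chromosome 8 stood at 4.64 and 4.71, a difference of -0.02 with an SD of 0.08. The ChIP and input libraries overlapped on all 3 chromosomes. With peak table totals as library sizes the differences on chromosomes 6 and 20 turned to -1.09 and -1.40. The rule for members used no measured value, but the gene family was taken up with earlier results of these data known, so no p is given for its sums.

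By block, the long arm of chromosome 20 stood at 0.36 (SD 0.15) and the short arm at 0.11 (SD 0.19). The alpha-defensin block was at -0.01 (SD 0.09) and the outer beta-defensin block at 0.06 (SD 0.16). The repeated block, with its few reads, was at -0.37 (SD 0.28). Within groups, chromosome 6 was above input in each of the 4, by 0.92 in wild-type cells in 10% serum, 0.41 in wild-type cells in 0.1% serum, 0.65 in ΔLEO1 cells in 10% serum and 0.44 in ΔLEO1 cells in 0.1% serum. Chromosome 20 lay between 0.24 and 0.34, and chromosome 8 between -0.20 and 0.14.

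**Figure D3:**
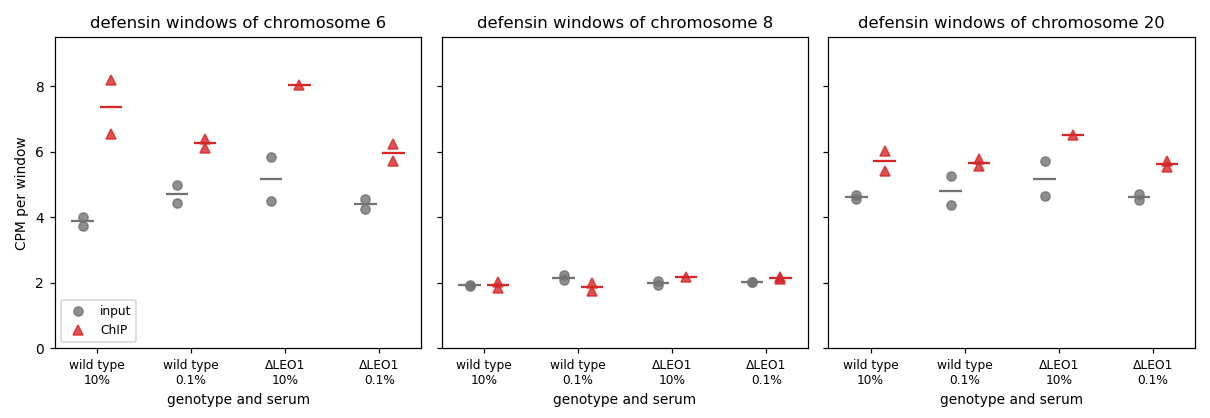
Level of the defensin windows of chromosomes 6, 8 and 20 in CPM per window, with 1 point per library and a bar at the group mean, for input (grey) and ChIP (red) in each genotype and serum. ChIP lies above the input of its own group in all 4 groups on chromosome 6 (6.55 and 8.20 against 4.02 and 3.74 in wild-type cells in 10% serum) and near input on chromosome 8.

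Other tissue-restricted gene families gave a scale for these values. In wild-type cells in 10% serum, 224 of 353 tested olfactory receptor genes were higher in ChIP, or 63.5%, with a median log2 ratio of 0.85. Of the keratin-associated protein genes, 36 of 63 were higher, or 57.1%, with a median of 0.76. The defensins, with 27.3% and a median of 0.27, were below both families in this group. Per library, the defensin level per window relative to olfactory receptor genes was 0.743 to 0.809 in the 8 inputs and 0.554 to 0.664 in the 7 ChIP libraries. Relative to keratin-associated protein genes it was 1.02 to 1.08 in input and 0.765 to 0.978 in ChIP. Relative to all other genes it went the other way, from 0.581 to 0.702 in input to 0.855 to 1.04 in ChIP. The libraries did not overlap in any of the 3, and the log2 shifts from input to ChIP were -0.35 (SD 0.08), -0.32 (SD 0.09) and 0.54 (SD 0.10). With non-overlapping windows only, the last shift was 0.28. Using only the defensin genes without copies, the shifts were -0.39, -0.37 and 0.50. The level of all other genes is an average over 218299 windows of 61682 genes, so genes with many starts weigh more in it. Counted per gene in wild-type cells in 10% serum, the median was 0.27 for defensins and 0.13 for all genes.

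**Figure D4:**
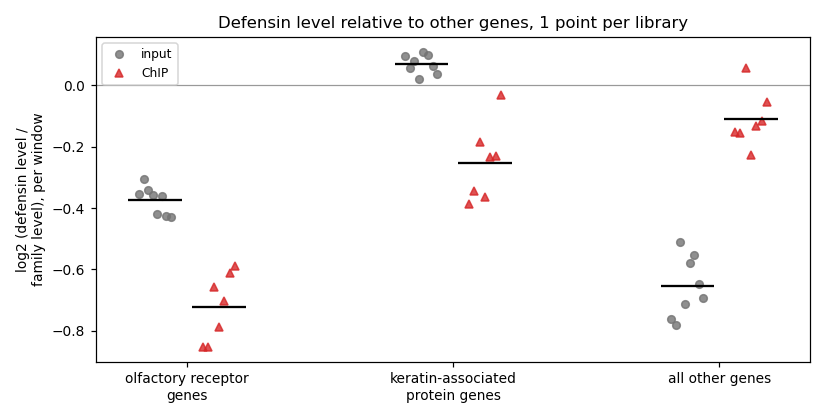
Log2 ratio of the defensin level per window to the level per window of olfactory receptor genes, keratin-associated protein genes and all other genes, with 1 point per library and a bar at the mean, for 8 inputs (grey) and 7 ChIP libraries (red). From input to ChIP the ratio moves by -0.35, -0.32 and 0.54, with no overlap between the libraries.

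Related genes, and genes chosen only because they lie beside the defensins of chromosome 8, were compared in wild-type cells in 10% serum. In that group 29.7% of all genes were higher and 27.3% lower. Of 28 tested genes for other antimicrobial peptides and proteins, 6 were higher in ChIP, or 21.4%, and 2 were lower, with a median log2 ratio of 0.15, so both shares were below those of all genes. Among those higher was CAMP, the gene of cathelicidin, at 0.98 ± 0.24 (edgeR adjusted p = 0.00158), and among those lower was LCN2, a siderophore-binding protein, at -0.98 ± 0.23 (edgeR adjusted p = 0.00113). Of 6 genes for defensin receptors and processing enzymes 1 was higher, CCR6, the chemokine receptor that beta-defensins can engage, at 1.35 ± 0.25 (edgeR adjusted p = 0.000111). Of 7 tested genes beside the defensins of chromosome 8, 0 were higher and 3 were lower, with a median of -0.90. The lower genes were AGPAT5, MCPH1 and XKR5, at -1.36 ± 0.23, -0.90 ± 0.16 and -1.20 ± 0.31 (edgeR adjusted p = 5.13e-05, 8.72e-05 and 0.00202). The other groups differed: 1 gene was higher and 2 were lower in each, and the median was -0.47 in wild-type cells in 0.1% serum, 0.10 in ΔLEO1 cells in 0.1% serum and -0.02 in ΔLEO1 cells in 10% serum. The difference between groups was not tested for this list.

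The authors' merged peak regions were rare at starts in general. Of 218779 distinct windows of all genes on the main chromosomes, 1.76% overlapped a region, and of the 81 defensin windows 0 did, a share near that background. Of 16092 regions, 1 lay between the defensin windows of chromosome 11 and 2 lay between those of the long arm of chromosome 20. The region on chromosome 11 (71843641 to 71844374, an LTR12D repeat) held 12 to 23 reads in the 7 ChIP libraries and 5 to 17 in the 8 inputs. The regions of chromosome 20 are an L1MA1 repeat (31293634 to 31294309), with 8 to 23 reads in ChIP and 4 to 13 in input, and an AluSc5 repeat (31330090 to 31330674), with 3 to 22 and 3 to 9. These lie on both sides of DEFB116, and raw counts of ChIP and input are not corrected for depth here.

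The second comparison asked whether the loss of LEO1 changed the ChIP level at defensins in 0.1% serum, when the cells are quiescent. Under TMM the level is relative to the other genes, so a shift shared by all genes would not show. The same holds for the comparisons of serum. The study scaled its ChIP to added fly chromatin, which was not done here, and reports a global rise of H3K9me2 in quiescent ΔLEO1 cells. The calls below do not address that rise. Of 41 tested defensin genes, 0 passed (edgeR), and 2 had an unadjusted p under 0.05. DESeq2 also called 0. Over all 52966 genes, 0.0113% were called. The 41 genes ran from -0.83 to 0.66 on the log2 scale with a median of 0.07, while the median of all genes was -0.01. With the input difference taken off, 0 of 44 passed (edgeR) and 2 had an unadjusted p under 0.05. In 12 of the 41 genes both ΔLEO1 libraries were above both wild-type libraries, and in 5 they were below. Over all genes these shares were 19.4% and 21.8%, so 12 of 41 was above and 5 of 41 below the background.

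The gene with the largest difference was DEFB110. Its level in 0.1% serum was 3.67 and 5.82 CPM per window in ΔLEO1 replicates A and B, and 7.97 and 9.02 in wild-type replicates A and B. The log2 difference was -0.83 ± 0.30 (edgeR adjusted p = 0.364, smallest of the 41). The windows of DEFB110 overlap, so shared reads count again here too. In 10% serum the lone ΔLEO1 library held 8.01 and the wild-type libraries 7.37 and 9.90, so it lay between them.

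On the higher side were DEFB136 and DEFB134, neighbours in the outer beta-defensin block of chromosome 8, and DEFB112 of chromosome 6. DEFB134 held 6.25 and 5.82 in ΔLEO1 and 2.91 and 4.70 in wild-type cells in 0.1% serum, a log2 difference of 0.64 ± 0.26 (edgeR adjusted p = 0.433). DEFB136 held 5.43 and 5.62 against 3.37 and 3.01, a difference of 0.66 ± 0.35. DEFB112 held 7.06 and 6.02 against 3.37 and 5.26, a difference of 0.56 ± 0.30. None of these differences passed. On the lower side, DEFB127 and DEFA11P followed DEFB110, with -0.50 ± 0.33 and -0.39 ± 0.37.

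Summed over windows in 0.1% serum, chromosome 6 differed between the genotypes by -0.07 (pooled SD 0.07), chromosome 20 by -0.01 (SD 0.04) and chromosome 8 by 0.20 (SD 0.09), and the libraries overlapped on the first pair but not on chromosome 8. With peak table totals as library sizes these became 0.25, 0.30 and 0.52, and with non-overlapping windows chromosome 6 stood at 0.018, so the direction on chromosomes 6 and 20 depended on the setting. Within chromosome 8 the difference was 0.01 in the alpha-defensin block (SD 0.09), 0.40 in the repeated block with its few reads (SD 0.30) and 0.41 in the outer block (SD 0.08). The level of the outer block was 2.95 in both ΔLEO1 libraries and 2.10 and 2.34 in the wild-type libraries. In 10% serum the lone ΔLEO1 library was at 2.81 and the wild-type libraries at 2.33 and 2.13. In input the same block was at 2.43 in both ΔLEO1 libraries and at 2.70 and 2.50 in the wild-type libraries in 0.1% serum. Between all 4 ΔLEO1 and all 4 wild-type inputs it differed by -0.04 (SD 0.10). With 2 libraries against 2, these values are a description.

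In 10% serum the comparison of genotypes rests on the lone ΔLEO1 ChIP library. Of 41 genes 0 passed (edgeR), 3 had an unadjusted p under 0.05 and DESeq2 called 0, with 0.00378% of all genes called. The 3 were DEFA3 (0.96 ± 0.42), DEFA6 (-1.14 ± 0.51) and DEFB131E (0.98 ± 0.41).

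The third comparison asked whether 10 days in 0.1% serum changed the ChIP level in wild-type cells. Of 41 defensin genes 0 passed (edgeR), 0 had an unadjusted p under 0.05 and DESeq2 called 0. Over all genes, 0 of 52966 were called. The genes ran from -0.72 to 0.81, with a median of -0.11, while the median of all genes was -0.00. In 5 genes both libraries in 0.1% serum were above both in 10% serum and in 9 they were below, with 20% and 20.4% of all genes, so the share above was lower than the background and the share below was close to it. With the input difference taken off, 0 of 44 passed and 5 had an unadjusted p under 0.05.

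The largest differences with separate libraries were these. DEFB112 held 7.57 and 6.71 CPM per window in 10% serum and 3.37 and 5.26 in 0.1% serum, a log2 difference of -0.62 ± 0.31. DEFB1 held 6.77 and 4.70 in 10% serum and 3.07 and 3.76 in 0.1% serum, a difference of -0.60 ± 0.35. DEFB117 held 7.17 and 7.72, then 3.37 and 6.39, a difference of -0.54 ± 0.32. On the other side stood DEFB127, with 2.79 and 4.36 in 10% serum and 6.13 and 5.26 in 0.1% serum (0.61 ± 0.34), DEFB125 (0.36 ± 0.26) and DEFB135 (0.32 ± 0.26). The smallest adjusted p of the 41 was 0.573 (edgeR). DEFB112 and DEFB127 also stand in the genotype comparison, which uses the same wild-type libraries in 0.1% serum.

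**Figure D5:**
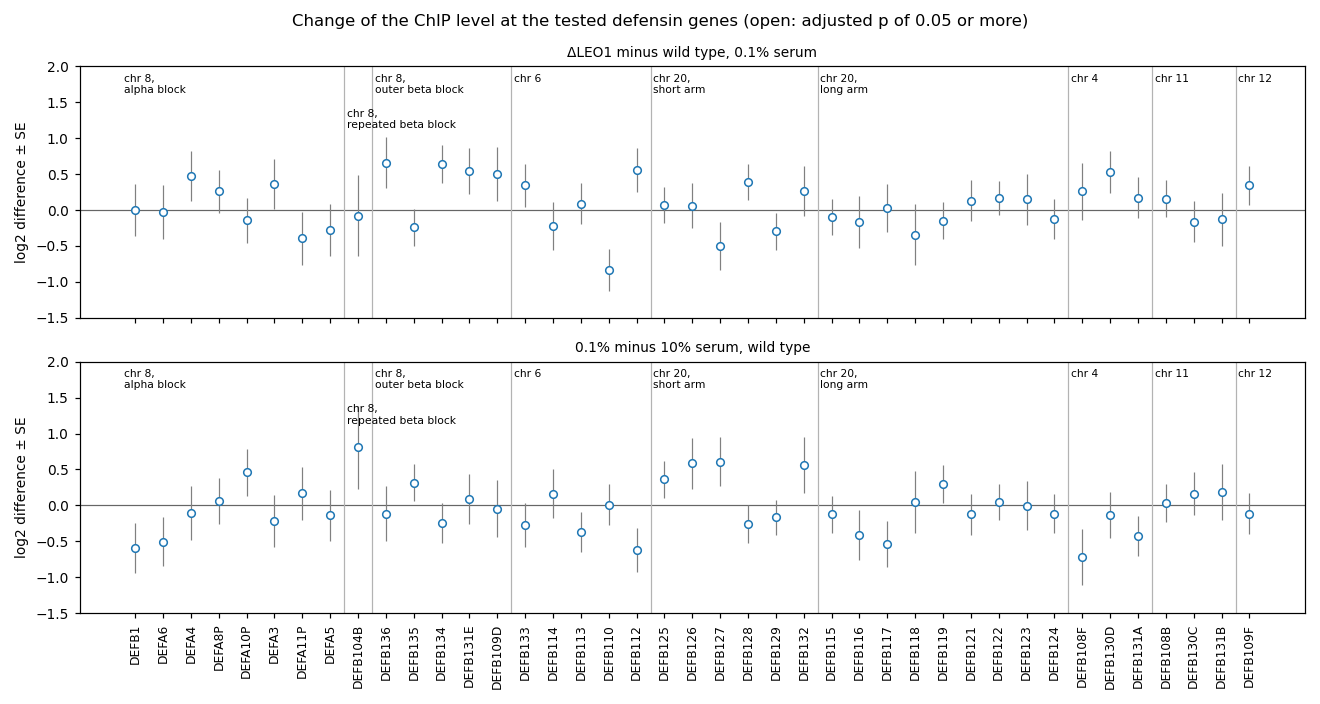
Log2 difference in ChIP level (± SE) at the 41 tested defensin genes, ordered by block, between ΔLEO1 and wild-type cells in 0.1% serum (top) and between 0.1% and 10% serum in wild-type cells (bottom). The values run from -0.83 to 0.66 and from -0.72 to 0.81, all symbols are open because no edgeR adjusted p was under 0.05, and DEFB110 is the lowest in the top panel.

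Summed over windows, the serum difference in wild-type cells was -0.23 on chromosome 6 (pooled SD 0.17), -0.05 on chromosome 8 (SD 0.12) and -0.01 on chromosome 20 (SD 0.08). With peak table totals as library sizes these became -0.031, 0.15 and 0.19, so the direction on chromosomes 8 and 20 turned. On chromosome 6 the libraries did not overlap, with 6.55 and 8.20 CPM per window in 10% serum and 6.13 and 6.39 in 0.1% serum. In ΔLEO1 cells, where the 10% group is 1 library, 0 of 41 genes passed (edgeR), 0 had an unadjusted p under 0.05 and DESeq2 called 0, with 0.00189% of all genes called. The interaction of genotype and serum called 0 of 41 genes (edgeR), with 0 at an unadjusted p under 0.05.

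Input DNA showed no called difference between the genotypes either. In 0.1% serum 0 of 45 defensin genes passed (edgeR), 1 had an unadjusted p under 0.05 and DESeq2 called 0, and 0 of 57479 genes passed in all. Between the genotypes in 10% serum, between the sera in wild-type cells and for the interaction, 0 of 45 passed in input (edgeR), with 4, 3 and 1 at an unadjusted p under 0.05 and 0.00174% of all genes called in each. Summed over windows and both sera, the 4 ΔLEO1 inputs differed from the 4 wild-type inputs by 0.15 on chromosome 6 (pooled SD 0.19), -0.02 on chromosome 8 (SD 0.08) and 0.05 on chromosome 20 (SD 0.14), and the libraries overlapped on all 3. The value of chromosome 6 was 0.40 in 10% serum (SD 0.19) and -0.09 in 0.1% serum (SD 0.10).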

How the data were processed

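Chromatin of BJ-5ta fibroblasts was sequenced after ChIP and as input. The submitters' processing notes name bcl2fastq 2.20.0.422, STAR 2.7.10a, HOMER and the builds hg38 and dm6; the treatment of multi-mapping and duplicate reads is not given in the sources used here. The authors deposited raw read counts per library, whole numbers without scaling, over TSS windows and over merged peak regions. Fly spike-in scaling was not used. Of 67 defensin symbols, 63 had a window within 1 kb of the RefSeq start (GRCh38.p14). Windows with distinct coordinates were summed per gene, so reads in overlapping windows of 1 gene count again.

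Genes were kept by filterByExpr (minimum count 10) and tested with edgeR 4.0.16 in R 4.3.3 (quasi-likelihood test, TMM, prior count 2), with Benjamini-Hochberg adjustment over all genes tested and a threshold of 0.05. The fits held 15 libraries for ChIP over input, 7 for ChIP and 8 for input. Standard errors came from the F statistic. The step was tested on simulated data. DESeq2 was version 1.42.0. Permutation tests planned for sums over genes are not given.

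The members and gene lists were chosen with earlier results of these data known. Named genes were those called anywhere, the 3 highest and 2 lowest ratios per cluster with 20 or more input reads, the 3 largest changes each way with separate libraries, and a list of well-known members. The limit given for genes without reads covers counting error only, while SE and SD values include the spread between libraries.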

Additional observations from a re-analysis of the deposited data

How the results depend on the processing

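The genotype, serum and input comparisons called 0 defensin genes under every alternative run (no filter, library totals, DESeq2, replicate block, non-overlapping windows, peak table totals, the library of 54 reads put back, each replicate left out and, for the 2 main ChIP comparisons, the input taken off, 4 libraries only and single windows). ChIP over input changed more. In the order wild type 10%, wild type 0.1%, ΔLEO1 0.1% and ΔLEO1 10% serum, the calls of 13, 6, 11 and 5 became 4, 0, 0 and 0 with DESeq2, 7, 5 (2 higher and 3 lower), 7 and 3 with non-overlapping windows, and 43, 44, 34 and 27, all lower, with peak table totals, which set the centre of all genes lower by construction. With library totals they were 10 and 11 in wild type 0.1% and ΔLEO1 10% serum. Leaving out each replicate gave 2 to 11, 2 to 5, 2 to 6 and 3 to 4. In wild type 0.1% serum the higher calls went from 4 to 0 without ChIP replicate B and to 2 of 5 without input replicate B. The cause of the other changes was not tested.

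For the sums, ChIP minus input on chromosomes 6, 8 and 20 was 0.84, 0.26 and 0.53 with library totals and -1.09, -1.67 and -1.40 with peak table totals. With the latter, the genotype difference in 0.1% serum was 0.25, 0.52 and 0.30, the serum difference -0.031, 0.15 and 0.19, and the input difference on chromosome 8 -0.13. With non-overlapping windows the genotype difference on chromosome 6 was 0.018 and the shift against all other genes 0.28. The other settings run left each sum within 1 SD.

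With the replicate letter as a block the calls were 13, 6, 9 and 4. The letters did not pair the libraries: the A minus B differences of 2 groups correlated at 0.01 to 0.03 in ChIP and 0.02 to 0.13 in input.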
